A study of Mus musculus with 4 samples.

Results

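Isolated CpGs are CpG dinucleotides that stand alone in the sequence measured here. Reads from the 2 strands of a CpG were added together, the positions listed in any of the 4 libraries were pooled over autosomes 1 to 19, and a CpG counted as isolated when no other pooled CpG lay within 500 bp on either side. Of 15959399 pooled autosomal CpGs 125549 met this rule, or 0.787%. The rule uses positions alone and no methylation value. The median distance from an isolated CpG to its nearest pooled neighbour was 611 bp, against 33 bp for the other CpGs.

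DNA methylation was measured by whole-genome bisulfite sequencing of microglia, which are the brain's own macrophages, from the hippocampus of mice that carried the fluorescent reporter allele Tmem119-tdTomato+/- and were 3 weeks old. The 2 FGR libraries came from mice with growth restriction before birth and the 2 Control libraries from control mice, and both groups share tissue, age and genotype. The comparison asks how growth restriction relates to microglial DNA methylation. The labels name neither the method that restricted growth nor whether a replicate is 1 animal or a pool. No p below thus measures more than the spread between these libraries, which may be technical, and the counting error of reads. Counting error enters the quasi-binomial p, where overdispersion was kept at 1 or above.

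Bisulfite turns unmethylated cytosine into uracil and leaves methylated cytosine, so that the share of reads with C at a CpG is its methylation level. Most mammalian CpGs are methylated, those of CpG islands at active promoters are not, and CpGs far from others lie in CpG-poor sequence that has lost most of its CpGs during evolution, since methylated cytosine mutates readily. The maintenance methyltransferase Dnmt1 copies methylation onto the new DNA strand after replication. In human cells, solitary CpGs with A or T on both sides are known to lose methylation with cell division, above all in late-replicating domains poor in genes.

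The FGR libraries listed 7615146 and 13578464 cytosines with a summed coverage of 49563150 and 91762720 reads, and the Control libraries listed 9335713 and 10023353 cytosines with 62202250 and 66971740 reads. No listed cytosine had fewer than 5 reads, and a listed cytosine had 6.51 to 6.76 reads on average. A neighbour that reached 5 reads in no library is not in the pool, so some isolated CpGs have unlisted neighbours in the genome. Isolated CpGs were listed at 55734 and 87721 positions in FGR replicates 1 and 2 and at 66676 and 71039 in Control replicates 1 and 2. All 4 tables listed 12.7% of the isolated CpGs, 15970, against 8.93% of the other CpGs, and 29.0% of the isolated CpGs stood in 1 table alone. As a check of the cell type, the CpGs within 1000 bp of the starts of listed microglia genes had a median level of 16.8% over 16 genes, and 10 of these 16 starts were below 50% in all 4 libraries. The same medians were 18.7% for 8 astrocyte genes, 33.7% for 13 neuronal genes and 36.0% for 5 oligodendrocyte lineage genes. They were 40.1% for 6 endothelial genes and 74.7% for 4 lymphocyte genes. In the same order 5, 6, 2, 3 and 1 of these starts were below 50% in all 4 libraries. Microglia and astrocyte starts were thus not told apart by this measure.

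The sequence around isolated CpGs could be read where they fell into a RefSeq promoter window of GRCm38.p6, the assembly of mm10, which runs from 250 bases before a gene's start to 50 bases after it. Of 31396 autosomal windows with 139397 listed CpGs, 145 CpGs were isolated, or 0.104%. At all 139397 positions the reference has CG. In 100 of the 145 windows, 69.0%, the isolated CpG was the only CG of the 300 bases, in 45 the window held another CG that is in no table, and in 12 of these the window held 5 or more CG. The lone CGs had 57.1% and 58.4% in FGR and 61.1% and 55.5% in Control. Those with another CG in the window were lower, with 26.4% and 52.4% in FGR and 41.3% and 41.1% in Control. The latter cover 15 to 17 CpGs per library. Olfactory receptor genes (Olfr) gave 19 of the 145 isolated promoter CpGs, 13.1%, while they make up 3.00% of the windows, and vomeronasal receptor genes (Vmn1r and Vmn2r) gave 8, or 5.52%, against 1.02% of the windows. These are sensory receptor families that stand in clusters in the genome. CpGs are set against windows here, and the share of these families among all listed promoter CpGs is not given. The stretches below show how such a CpG sits in its sequence: 20 bases on each side of the CpG, read on the strand of the gene, for the named genes whose isolated CpG was listed in all 4 libraries and whose 42 bases all lay inside the window and before the start. Adam29 and Olfr930 also had such a CpG before the start, with 58.3% and 68.1% over all reads, but it lay too near the window's edge for a whole stretch. The capitals mark the isolated CpG.

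Olfr1152: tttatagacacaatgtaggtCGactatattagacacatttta
Olfr1163: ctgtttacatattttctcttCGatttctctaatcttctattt
Olfr73: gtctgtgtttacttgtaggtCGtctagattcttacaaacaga
Olfr1246: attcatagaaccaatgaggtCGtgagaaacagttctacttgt
Olfr894: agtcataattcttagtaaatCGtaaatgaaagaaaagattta
Sirpb1a: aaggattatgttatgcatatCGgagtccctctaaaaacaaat

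The Olfr1152 stretch is chr2:87867802-87867843 on the plus strand, and its CpG lies at base -171 from the start. In Olfr1152 3 of 9 and 4 of 11 reads were methylated in FGR, against 0 of 7 and 3 of 12 in Control, 25.6% over all reads. Its level was the lowest of the 6, and both FGR libraries lay above both Control libraries. The Olfr1163 stretch is chr2:88071523-88071564 on the minus strand, with 2 of 5 and 2 of 7 methylated reads in FGR, against 2 of 5 and 7 of 17 in Control. The Olfr73 stretch is chr2:88035142-88035183 on the minus strand, with 6 of 12 and 3 of 7 in FGR, against 3 of 11 and 3 of 6 in Control. Both genes were thus methylated at an intermediate level, 38.2% and 41.7% over all reads. The Olfr1246 stretch, chr2:89591344-89591385 on the minus strand, had 6 of 9 and 6 of 13 methylated reads in FGR, against 3 of 5 and 3 of 6 in Control. The Olfr894 stretch, chr9:38218596-38218637 on the plus strand, had 3 of 5 and 3 of 6 in FGR, against 5 of 7 and 2 of 5 in Control. Over all reads these came to 54.5% and 56.5%. The exception was Sirpb1a, a gene of the signal-regulatory protein family of myeloid cell-surface receptors, at chr3:15426605-15426646 on the minus strand. There 4 of 5 and 11 of 12 reads were methylated in FGR, against 11 of 13 and 6 of 6 in Control, 88.9% over all reads. In all of these CpGs but that of Olfr1152 the ranges of the FGR and Control libraries overlapped or met.

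Isolated and other promoter CpGs differed in the letters beside the CpG. Isolated promoter CpGs had A or T on both sides (ACGA, which is TCGT on the other strand, and ACGT and TCGA) in 29.2% of cases, against 14.9% of the other promoter CpGs, and C or G on both sides in 20.1%, against 42.5%. The isolated CpGs with A or T on both sides had levels of 50.7% and 39.6% in FGR and 33.1% and 38.7% in Control, over 20 to 28 CpGs per library. Those with C or G on both sides had 45.3% and 77.5% in FGR and 56.3% and 50.8% in Control, over 10 to 15 CpGs, above the A or T class in 3 of 4 libraries and below it in FGR 1. Those with 1 such letter had 52.9% and 62.7% in FGR and 71.8% and 61% in Control, above the C or G class in 3 of 4 libraries, so the isolated CpGs gave no steady order. Among the other CpGs of all promoter windows the A or T class was the higher one: with A or T on both sides they had 37.0% and 41.0% in FGR and 42.02% and 44.7% in Control, and with C or G on both sides 19.2% and 27.0% in FGR and 24.8% and 26.8% in Control. Those windows include the CpG-rich ones. In the windows with 1 to 4 CG alone, isolated CpGs included, the A or T class was the lower one. There the level averaged 61.8% over the 4 libraries at 5304 CpGs with A or T on both sides, 69.4% at 9170 CpGs with 1 such letter and 72.6% at 4233 CpGs with C or G on both sides. The outer classes had 61.3% and 62.2% against 71.1% and 72.9% in the FGR libraries, and 61.55% and 62.01% against 72.9% and 73.4% in the Control libraries. The gap of each library was wider than the spread of either class across libraries, in the same order in 4 of 4 libraries.

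Isolated CpGs were less methylated than the rest of the autosomal genome. To compare libraries on the same positions, CpGs listed in all 4 were used, after the 0.1% of CpGs with the highest coverage had been left out of each library, which left 15822 isolated and 1402663 other CpGs. A level is the methylated reads over all reads of a class in 1 library. At these shared CpGs isolated ones had 63.06% and 63.05% in the FGR libraries and 63.54% and 63.65% in the Control libraries. The other CpGs had 76.56% and 76.59% in FGR and 76.88% and 77.04% in Control. Isolated minus other CpGs was -13.50 and -13.54 points in FGR and -13.35 and -13.39 points in Control, a mean of -13.4 points, far beyond the spread between libraries. An exact two-sided sign-flip test over the 4 libraries gave p = 0.125, the smallest its 16 assignments allow. Over all listed CpGs, where each library has its own set, the difference was -11.4 points, between -10.6 and -11.9, and the exact sign-flip test again gave p = 0.125.

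The level went down with the distance to the nearest pooled CpG. At shared CpGs the mean over the 4 libraries was 85.6% where a neighbour lay 1 to 10 bp away, 79.5% at 11 to 50 bp, 72.3% at 51 to 100 bp, 72.5% at 101 to 250 bp and 66.9% at 251 to 500 bp. Among isolated CpGs it was 64.0% at 501 to 750 bp, 61.1% at 751 to 1000 bp and 58.9% at 1001 to 2000 bp. The last of these classes held 806 CpGs, with 58.7% and 57.9% in FGR and 58.96% and 60.01% in Control. The 56 shared CpGs with no neighbour within 2000 bp departed from this order, with 73.7% and 75.9% in FGR and 65.2% and 70.4% in Control. Over all listed CpGs that class had 65.3%, against 61.8% at 1001 to 2000 bp. The limit of 500 bp is no step in this course: over all listed CpGs those with a neighbour at 451 to 500 bp had 64.4%, just outside the rule, and those at 501 to 550 bp 65.7%, just inside it.

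**Figure D1:**
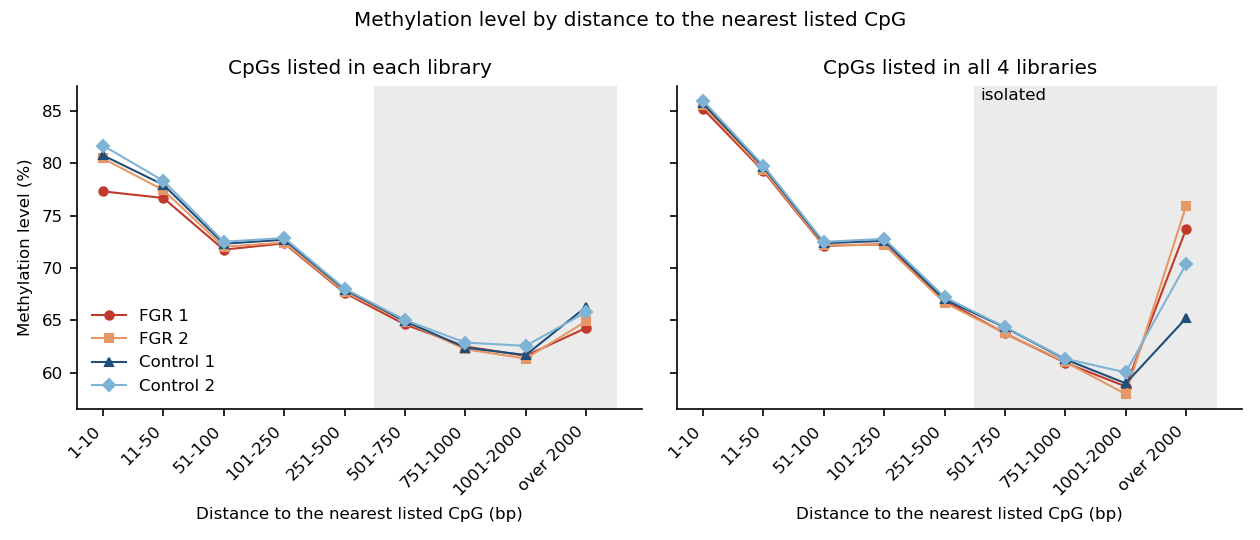
Methylation level (percent) by the distance in bp to the nearest pooled CpG, for the CpGs listed in each library (left) and those listed in all 4 (right), with one line per FGR and Control library and the isolated classes shaded. On the right the mean over the libraries is 85.6% at 1 to 10 bp and 58.9% at 1001 to 2000 bp, and the class over 2000 bp, with 56 CpGs, lies higher at 71.3%.

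Isolated CpGs were mostly partly methylated. With the reads of the 4 libraries pooled, a median of 33 reads per CpG, 64.4% of the shared isolated CpGs had a level above 20% and below 80%, 30.5% had 80% or more and 5.18% had 20% or less. The other CpGs, with a median of 31 reads, had 38.4%, 58.3% and 3.29% in the same classes. The median level was 66.7% for isolated and 84.2% for other CpGs. Isolated CpGs spread broadly over the middle of the scale, and 14.4% of them had 90% or more, against 37.2% of the other CpGs. Intermediate isolated CpGs varied between libraries about as much as counting error gives: the squared deviations from the pooled level averaged 1.10 times the binomial variance, against 1.12 times at the other intermediate CpGs.

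**Figure D2:**
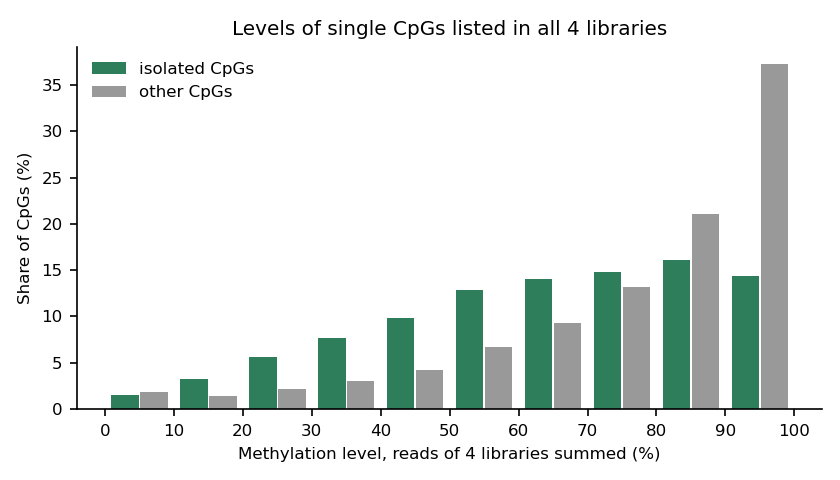
Share of CpGs (percent of the class) by methylation level with the reads of the 4 libraries pooled, in steps of 10 points, for 15822 isolated and 1402663 other CpGs listed in all 4 libraries. The isolated CpGs spread over the middle and upper classes, while 37.2% of the other CpGs lie at 90% or above, against 14.4% of the isolated CpGs.

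The 2 strands of isolated CpGs had like levels as a class. Both were listed at 14.6% and 28.9% of isolated CpGs in FGR 1 and FGR 2 and at 19.8% and 22.2% in Control 1 and Control 2. There the forward and reverse strand had 63.2% and 63.4% in FGR 1 and 63.7% and 64.1% in FGR 2, against 63.3% and 64.0% in Control 1 and 64.0% and 63.9% in Control 2. At a single isolated CpG the strands differed by 19.6 and 18.8 points on average in FGR and by 19.2 and 19.2 points in Control, against 15.4 and 14.8 points in FGR and 15.2 and 14.96 points in Control at the other CpGs. A strand at 80% or above opposite one at 20% or below was seen at 1.69% and 1.29% of these CpGs in FGR and at 1.47% and 1.42% in Control. The same share among the other CpGs was 0.959% and 0.682% in FGR and 0.915% and 0.819% in Control. Isolated CpGs were more often at intermediate levels, where counting error is largest, and its part in these strand differences was not tested.

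Isolated CpGs lay mostly between genes. Of the 125549, 84451 lay between genes, 67.3%, against 43.4% of the other CpGs. The number inside genes was 40066, 31.9% against 52.3% of the other CpGs, and 1032, or 0.822%, lay within 1000 bp of a gene start, against 4.29%. At shared CpGs those inside genes had 68.6% on average over the libraries, against 80.4% for the other CpGs inside genes. Between genes the isolated level was 61.0%, against 73.7% for the others. Near starts it was 59.7% at 119 isolated CpGs, against 60.1% for the others, and over all listed CpGs it was 61.5% and 44.0%. At shared CpGs the lower level of isolated CpGs thus held inside genes and between genes, in 4 of 4 libraries each.

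Isolated CpGs were also below the CpGs around them. Each shared isolated CpG was set against the CpGs, isolated or not, listed within 5000 bp of it, a median of 36, and 15770 had at least 10 such reads in every library. The isolated CpGs minus their surroundings gave -6.62 and -6.77 points in the FGR libraries and -6.53 and -6.64 points in the Control libraries, a mean of -6.64 points (exact sign-flip p = 0.125, the smallest possible). The surroundings had 69.7% and 69.8% in FGR and 70.1% and 70.3% in Control, below the level of the autosomes. With all CpGs within 50000 bp the difference was -7.45 points, and within 500000 bp -7.99 points. The difference to the surroundings within 5000 bp differed between FGR and Control by -0.114 points (exact permutation p = 0.667). All 3 differences were smaller than the -13.4 points against all other CpGs, and these distances were chosen after the data were seen. The isolated CpGs at 80% or above had a median surrounding level of 73.9%, lay a median of 78187 bp from a gene start and were inside genes in 41.9% of cases. Those at 20% or below had a surrounding level of 66.5%, lay 145574 bp from a start and were inside genes in 27.4% of cases.

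**Figure D3:**
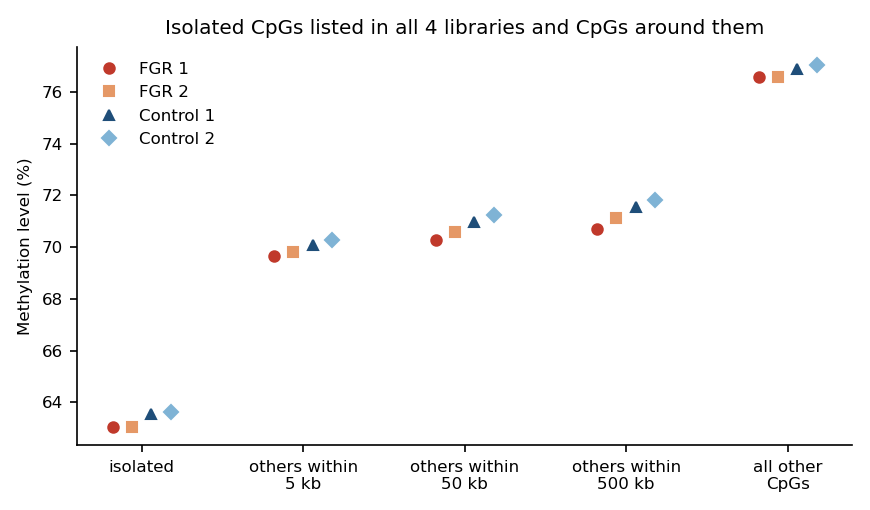
Methylation level (percent) of the shared isolated CpGs, of the CpGs listed within 5, 50 and 500 kb of them and of all other shared CpGs, one point per library, FGR left of Control. In each of the 4 libraries the isolated CpGs lie below their surroundings, with 63.05 to 63.65% against 69.7 to 70.3% within 5 kb.

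By chromosome, isolated CpGs at shared positions lay between 61.1% on chromosome 3 and 69.4% on chromosome 13, as means over the libraries. They were below the other CpGs on 19 of 19 autosomes, with -9.32 points on chromosome 13 and -15.4 points on chromosome 17 at the extremes. Isolated CpGs made up 0.509% of the pooled CpGs of chromosome 11 and 1.03% of those of chromosome 14, the lowest and highest shares. In windows of 1 Mb with at least 3 shared isolated CpGs, the isolated level was below that of the other CpGs of the window in 1238 of 1519 windows, 81.5%, with a median of -8.06 points. Windows with no protein-coding gene had a mean isolated level of 59.2%, against 68.4% at their other CpGs, over 204 windows. In 481 windows with 5 to 14 genes the isolated level was 66.6%, against 77.6%, and in 191 windows with 15 or more it was 64.4%, against 76.0%.

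Among 148 windows with at least 20 shared isolated CpGs the level ranged between 42.2% and 79.6%, with a median of 58.2%. The lowest level, 42.2%, was on chromosome 17 from 41000001, with no protein-coding gene, followed by 42.4% on chromosome 3 from 91000001 and 42.7% on chromosome 8 from 100000001. The fourth lowest, on chromosome 2 from 87000001, held 49 protein-coding genes, mostly olfactory receptors, and had 47.8% and 48.5% in FGR against 47.5% and 39.6% in Control. The highest level was on chromosome 2 from 46000001, with 81.6% and 82.4% in FGR and 77.6% and 76.8% in Control. Also among the highest was a window on chromosome 1 from 144000001 with 75.5%. That window holds Rgs1, Rgs2, Rgs13, Rgs18 and Rgs21, which encode regulators of G protein signalling. The window of Man1a, a mannosidase gene of N-glycan processing, on chromosome 10 from 54000001 had 73.8%.

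Gene bodies differed widely at their isolated CpGs. At least 1 isolated CpG lay in 9341 of 33069 protein-coding and lncRNA genes, 28.2%. Named after their values were seen, the genes with most were Cntnap2 with 259, Dpp10 with 213 and Lrp1b with 176, long genes of neuronal cell-surface proteins. In 420 bodies at least 3 isolated CpGs were listed in all 4 libraries with 10 or more reads in each, and in 294 of them, 70%, the isolated CpGs were below the other CpGs of the same body, with a median of -5.67 points. Among 155 bodies with at least 5 shared isolated CpGs the level ranged between 28.6% and 98.2%, with a median of 63.7%.

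The lowest body was Negr1, which encodes a neuronal cell adhesion molecule, on chromosome 3. Its 8 isolated CpGs had 34.9% and 31.2% in FGR, against 25.4% and 22.7% in Control, while its other CpGs had 68.2%. Zfp804a, a zinc finger gene, followed with 38.2% and 34.8% in FGR against 35.4% and 43.3% in Control. Cdh8, a cadherin gene, had 48.8% and 46.8% in FGR against 31.4% and 51.9% in Control, and Gpm6a, which encodes a neuronal membrane glycoprotein, had 50% and 41.7% against 38.7% and 50%. Zfp978, A26c3, Stpg2 and Skint5 had means of 38.4%, 43.3%, 44.9% and 45.03%. In each of these 8 bodies the other CpGs were higher, at 58.0% to 74.1%. The 8 were picked for the lowest isolated levels, which favours this order, so it is no separate result. Of the 8, the groups overlapped in Zfp804a, Zfp978, Cdh8, Stpg2 and Gpm6a and not in Negr1, A26c3 and Skint5. Among all 420 bodies the groups did not overlap in 35.2%, so such a count is near the general share.

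The highest body was Faf1. It encodes a ubiquitin-binding factor of cell death signalling and had 100% and 96.4% in FGR and 100% and 96.4% in Control. Xrcc4, a DNA repair gene of end joining, had 91.8% and 92.8% in FGR and 94.3% and 91.8% in Control. Tbc1d5, a gene of endosomal trafficking, had 92.5% and 88.5% in FGR and 91.7% and 86.7% in Control. Fam172a, Dennd1a, Scaper and Lrmda had means of 97.2%, 94.4%, 87.9% and 86.7%. Here the other CpGs of these 7 bodies were high as well, at 85.96% to 92.1%. Of the 7 only Dennd1a and Scaper had groups that did not overlap, against 35.2% of all 420 bodies.

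**Figure D4:**
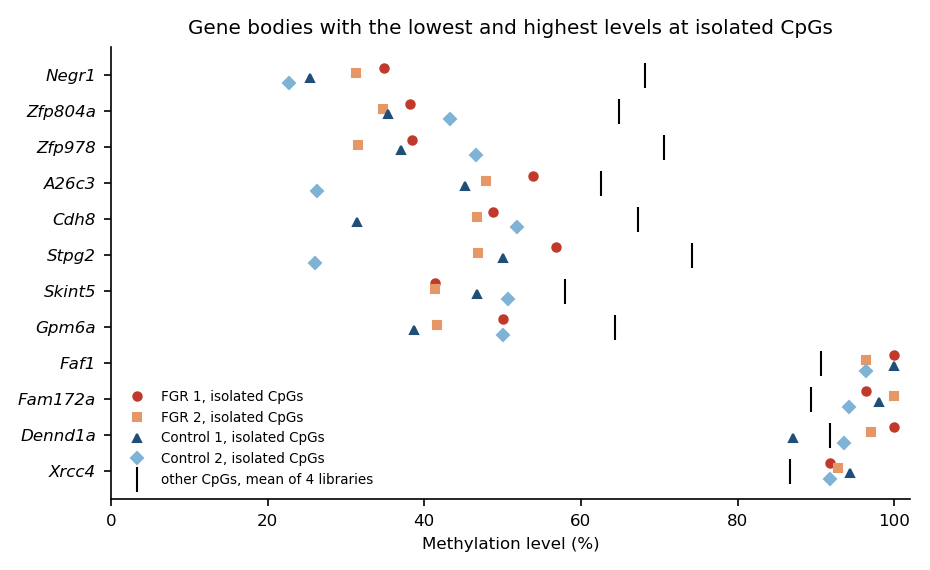
Methylation level (percent) at shared isolated CpGs of the 8 gene bodies with the lowest and the 4 with the highest mean, with FGR and Control libraries as separate points and the mean of the other CpGs of the same body marked. In the lowest bodies, 28.6% to 45.1%, the other CpGs lie higher, and in the highest bodies, 92.7% to 98.2%, they have 86.7% to 91.8%. The bodies were picked by their isolated level, which favours this order.

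The lists of cell type genes met isolated CpGs to very different extents. These counts were not set against gene length, which differs between the lists. Cntnap2 and Dlg2 of the neuronal list span 2241333 and 1973059 bp. Cx3cr1 of the microglia list runs only from 120048683 to 120068296 on chromosome 9. Of 23 microglia genes found 4 held any, Mef2c, Mertk, Tgfbr1 and Itgam, with 14 isolated CpGs in all and 1 listed in all 4 libraries, so none could be tested. The single one lay in Mef2c, a transcription factor gene. It had 85.7% of 7 reads and 92.9% of 14 in FGR, against 83.3% of 12 and 50% of 6 in Control. Of 20 neuronal genes 18 held 1134 isolated CpGs, and 10 were tested. Their median level was 60.2%, against 69.1% at the other CpGs of the same bodies. In 7 of the 10 the level was lower in FGR and in 3 higher, with a median difference of -1.07 points, against -0.340 points over all 420 bodies, and none passed the test given below. Cntnap2, a neurexin family adhesion gene with 36 shared isolated CpGs, had 60.2% and 60.6% in FGR against 64.1% and 57.7% in Control. Dlg2, a postsynaptic scaffold gene, had 62.4% and 66.7% against 66.5% and 66.3%, and Nrg3, a neuregulin gene, 61.8% and 54.4% against 58.3% and 60.6%. The groups overlapped in each of these 3. Of the astrocyte list Gpc5, a glypican gene, had 76.6% and 72.6% in FGR against 75% and 68.7% in Control. Of the oligodendrocyte lineage, St18 averaged 66.8% and Lhfpl3 84.9%. Endothelial, lymphocyte, growth and oxygen and DNA methylation genes held 27, 29, 20 and 6 isolated CpGs, and 0 of their bodies could be tested. Among them were Nr3c2, a corticosteroid receptor gene, with 10, and Tet2, an enzyme gene of methylcytosine oxidation, with 3.

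Between the groups, isolated CpGs were slightly less methylated in FGR. At shared CpGs the level was 63.1 ± 0.00345% in FGR and 63.6 ± 0.0796% in Control (SD, n = 2 each), over 116262 and 151440 reads in FGR and 129959 and 135327 in Control. Both FGR libraries lay below both Control libraries, by -0.537 points of the means. Wilson 95% intervals were 62.8 to 63.3% for each FGR library, and 63.3 to 63.8% and 63.4 to 63.9% in Control, and cover counting error only. The exact two-sided permutation test gave p = 0.333, the smallest that the 6 assignments allow, so this design cannot pass 0.05. Without Control replicate 2 the difference was -0.251 points at the CpGs then shared, and at the 330 isolated CpGs with 10 or more reads in every library it was +0.169 points.

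Over all listed isolated CpGs the level was 64.09% and 64.25% in FGR and 64.34% and 64.55% in Control. The difference was -0.273 points (exact permutation p = 0.333), and without Control replicate 2 it was -0.171 points. The other CpGs had 74.73% and 75.69% in FGR and 76.08% and 76.46% in Control, a difference of -1.06 points. The gap between the FGR libraries was 0.155 points at isolated and 0.963 points at other CpGs, FGR 1 being the shallowest and FGR 2 the deepest library. At shared CpGs the other CpGs differed by -0.386 points, and the group difference of isolated minus other CpGs was -0.150 points (exact permutation p = 0.333, the smallest possible). Over all listed CpGs it was +0.788 points (exact permutation p = 0.333). At shared CpGs the sign also changed under several settings given in the closing section, so a larger group difference at isolated than at other CpGs was not shown.

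The lower level in FGR was seen at 501 to 750 bp with -0.583 points, at 751 to 1000 bp with -0.315 points and at 1001 to 2000 bp with -1.19 points. The 56 CpGs beyond 2000 bp had +7.05 points, with a gap of 5.16 points between the Control libraries. Between genes the difference was -0.666 points and inside genes -0.325 points, and near starts it was +0.195 points. By chromosome, isolated CpGs were lower in FGR on 17 of 19 autosomes. The groups did not overlap on 10 of the 19, or 52.6%, against 18 of 19, or 94.7%, for the other CpGs. The lowest difference was -2.25 points on chromosome 12, with 61.3% and 62.4% in FGR against 63.6% and 64.6% in Control. The level was higher in FGR on chromosome 13, with 70.2% and 69.7% against 69.0% and 68.9%, and on chromosome 18, by 0.660 points with overlapping groups. Over all listed CpGs the level was lower on 15 of 19, and 7 (36.8%) did not overlap, against 19 of 19 lower and 100% not overlapping for the other CpGs.

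**Figure D5:**
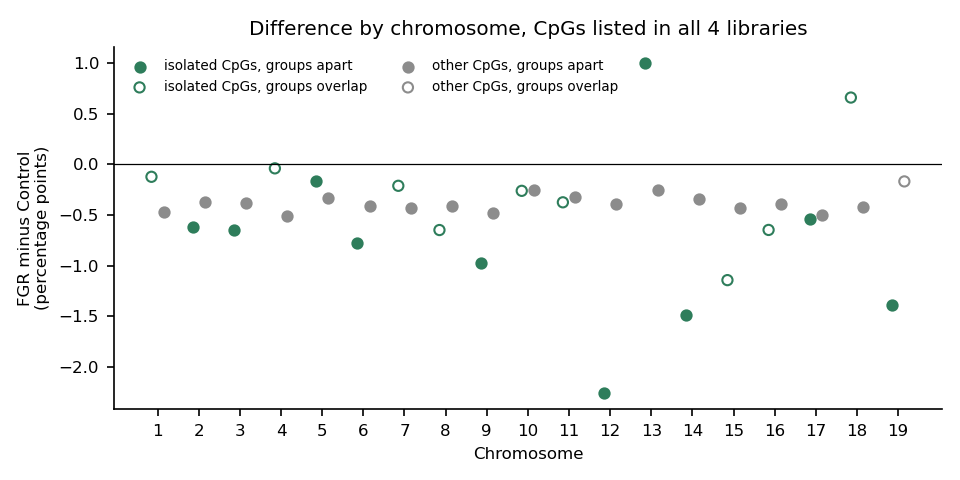
FGR minus Control (percentage points) of the methylation level by autosome, for isolated and for other CpGs listed in all 4 libraries, with filled points where the FGR and Control libraries do not overlap. Isolated CpGs range between -2.25 points on chromosome 12 and +0.997 points on chromosome 13, while the other CpGs stay between -0.506 and -0.168 points.

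Single isolated CpGs were tested with the quasi-binomial model where each library had at least 10 reads, which 330 did among 19589 autosomal CpGs. A call needed a Benjamini-Hochberg adjusted p under 0.05 over all 19589 and a difference of 10 points. None of the 330 was called (percent called 0, and 0 among all CpGs), and the smallest adjusted p was 0.933 by the quasi-binomial test. An unadjusted p under 0.05 was reached by 17, or 5.15%, against 4.78% of the other CpGs, and limma had 13 at an unadjusted p under 0.05 and called 0. Limma recovered no change in simulated single CpGs, so its 0 carries no information. Of the 330, 166 were lower and 160 higher in FGR, and the groups did not overlap in 31.2%, against 27.8% of the other CpGs. The median depth was 13 reads per library.

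The isolated CpGs with the smallest p were as follows. On chromosome 6 at 102539480, in Cntn3, a contactin adhesion gene, the level was 50% of 26 reads and 41.7% of 24 in FGR, against 83.3% of 12 and 71.4% of 14 in Control. Also on chromosome 6, at 23673123 in Cadps2, a gene of dense-core vesicle release, it was 76.9% and 59.1% in FGR against 94.4% and 90.9% in Control. On chromosome 14 at 43334670 it was 25% and 29.2% in FGR against 47.8% and 80% in Control. The fourth with a lower level, on chromosome 6 at 71897033 in Ptcd3, a mitochondrial ribosome gene, had 75% and 100% in FGR against 100% and 100% in Control, and its groups overlapped. Higher in FGR was a CpG on chromosome 14 at 37778004, between genes, with 83.3% and 100% against 50% and 63.6% in Control. The other 3 lay on chromosome 4 at 147533294, on chromosome 6 at 149253802 and on chromosome 8 at 71171338, with 32.5, 16.7 and 35.9 points more in FGR. On chromosome 8 the Control libraries had 20% and 77.8%, so that their own gap exceeded the difference.

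Summed over gene bodies, isolated CpGs gave no call. Of 420 bodies the quasi-binomial test called 0 (percent called 0), against 1 of 20948 on the other CpGs (0.00477), and the smallest adjusted p was 0.986. An unadjusted p under 0.05 was reached by 16 bodies, 3.81%, against 4.64% on the other CpGs, and limma called 0 with 19, at a smallest adjusted p of 0.0745. Of the bodies 222 were lower and 197 higher in FGR, with a median difference of -0.340 points, against -0.283 points on the other CpGs. The groups did not overlap in 35.2%, against 33.4%.

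Skint10 had the smallest p of the 6 bodies named for a lower level in FGR. Skint10, of an immunoglobulin-like family known from skin and thymus, had 56.5% and 61.1% in FGR against 84.4% and 93.8% in Control. Kcnc2, a voltage-gated potassium channel gene, had 55% and 72.4% in FGR against 91.7% and 85.7% in Control. Sybu, which encodes a linker of kinesin motors to cargo, had 61.1% and 75% against 90.6% and 90%. These 3 rest on 3 isolated CpGs each. Slc35f1, a solute carrier gene on chromosome 10 from 52690501 to 53111622, had 7, with 52.1% and 56.4% in FGR against 71.1% and 68.4% in Control. Col22a1, a collagen gene, and Itgbl1, an integrin-like gene, had differences of -23.0 and -11.3 points. In all 6 the FGR libraries lay below the Control libraries, as in 19.3% of all 420 bodies. The 6 were picked for a small p in this direction, which favours this order, so it is no separate result.

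Of the bodies named for a higher level, Sema3e, a secreted guidance factor gene, had 65.2% and 80% in FGR against 52.6% and 45% in Control. Cert1, a ceramide transfer gene, had 100% and 96.4% against 86.8% and 73.9%, and Snx29 and Dennd1a, both linked to membrane trafficking, differed by 6.94 and 8.16 points. Oca2, a melanosome transporter gene, had 77.3% and 52.4% in FGR against 38.2% and 52.4% in Control, and its groups met. Sema3e, Snx29 and Oca2 rest on 3 isolated CpGs each, Cert1 on 4 and Dennd1a on 5. At the other CpGs of these 11 bodies the groups differed by between -2.36 and +1.81 points, and the adjusted p of all 11 was 0.986 by the quasi-binomial test. The bodies were picked on their isolated CpGs, and their other CpGs are more numerous, so the sizes of both differences cannot be compared.

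In windows of 1 Mb, the deepest units, the quasi-binomial test called 0 of 1519 (percent called 0), and 0 of 2413 on the other CpGs. The smallest adjusted p was 0.873, and 65 windows, 4.28%, had an unadjusted p under 0.05, against 7.46% on the other CpGs. Limma called 0, with 97 at an unadjusted p under 0.05. On isolated CpGs 794 of 1519 windows, 52.3%, were lower in FGR, with a median of -0.267 points, and the groups did not overlap in 35.2%. On the other CpGs 1731 of 2413, 71.7%, were lower, with a median of -0.393 points and 39.5% not overlapping. A window held a median of 68 reads per library on isolated and 4593 on other CpGs, so that both counts were not reached at the same depth.

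The windows with the smallest p and a lower level in FGR were led by that of Cntn3 on chromosome 6 from 102000001, which also holds the single CpG named above. Its 16 isolated CpGs had 47.2% and 49.1% in FGR against 61.8% and 60.9% in Control. The window of Slitrk6, a gene of neurite growth, on chromosome 14 from 110000001 had 46.9% and 44.5% in FGR against 54.2% and 58.2% in Control over 26 isolated CpGs. Those on chromosome 11 from 92000001 and on chromosome 8 from 56000001 differed by -13.2 and -12.3 points. Higher in FGR was a window on chromosome 13 from 83000001, which holds Mef2c, with 76.1% and 77.3% against 65.7% and 59.0%. Of its 9 isolated CpGs only 1 lay in the body of Mef2c. Windows are named by a gene they hold, and their isolated CpGs can lie outside it. Also higher was a window with no protein-coding gene on chromosome 8 from 6000001, with 68.9% and 64.3% against 57.2% and 49.2%. The other 2, on chromosome 12 from 8000001 and on chromosome 13 from 60000001, rest on 3 isolated CpGs each and differed by 24.6 and 29.6 points. The other CpGs of these 8 windows differed by between -1.58 and +0.0184 points, and none of the 8 passed the quasi-binomial test (adjusted p = 0.873). The windows too were picked on isolated CpGs, which hold far fewer reads, so the sizes of both differences cannot be compared.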

How the data were processed

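Per the labels, genomic DNA was sonicated and bisulfite converted. Bismark, Trim Galore 0.6.5, methylKit 1.28.0 and build mm10 are named in the submitters' processing notes, without parameters. Each deposited table lists CpG cytosines by strand with a coverage, a count of reads per the file headers, and the percent of reads with C and with T, also per the file headers. Multiplying both gave whole methylated reads within 0.02 for 100% of cytosines. Both strands were summed, and the autosomal CpGs in the top 0.1% of coverage of a library were dropped from it. Reads are counted at each CpG, and duplicates cannot be told from independent molecules, so intervals cover counting error only and can be too narrow.

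Single CpGs needed 10 reads per library. Gene bodies (from 500 bp inside each end) and 1-Mb windows needed 3 isolated CpGs listed in all 4 tables and 10 reads per library. Methylated and unmethylated reads were fitted with a quasi-binomial model of group, with overdispersion kept at 0.1 or above, moderated with squeezeVar of limma 3.58.1 (R 4.3.3) with a trend on coverage, and then kept at 1 or above. The model was tested on simulated data. Alternatives were limma on the log2 of methylated over unmethylated reads (0.5 added to both), and other distances, coverage limits, weights and libraries left out. Genes, promoter windows and their sequences came from RefSeq GRCm38.p6.

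Named are the 6 gene bodies, 4 single CpGs and 4 windows with the smallest p in each direction. By level, named are 8 bodies and 4 windows at either end, the 6 single CpGs with the lowest level and the 3 with the longest distance, and up to 3 members of a list, leaving out unnamed gene models. Of these, 2 gene bodies and 1 window are not reported here. The isolated CpGs, gene lists and rules were chosen with earlier results of these data known. Python 3.11.15, numpy 2.4.6, pandas 2.3.3 and matplotlib 3.10.9 were used.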

Additional observations from a re-analysis of the deposited data

How the results depend on the processing

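The level of isolated CpGs stayed below that of other CpGs under every alternative run. The group difference at shared isolated CpGs was +0.169 points with a coverage of at least 10 reads, which leaves 330 CpGs, and between -0.539 and -0.251 points with 1 library left out. Over all listed isolated CpGs it lay between -0.376 and -0.171 points with 1 library left out. The group difference of isolated minus other CpGs was +0.788 points over all listed CpGs and at shared CpGs changed sign to +0.05005 points with isolation at 250 bp, +0.0590 with no CpG left out for coverage, +0.691 with at least 10 reads, +0.131 against surroundings within 50000 bp and +0.239 within 500000 bp, and it lay between -0.115 and 0.0545 points with 1 library left out, the last without Control replicate 2, where the cause was not tested. The surroundings and the limit at 2000 bp were chosen after seeing the data.

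Counts of calls were 0 under each alternative run, which is no sign of stability: in simulated data limma recovered no changed single CpG, and the quasi-binomial test missed most of the smaller changes. Gene bodies at 1000 bp could not be fitted, since too few had enough CpGs. The labels do not tie replicate numbers to a litter or batch, and deviations of same-numbered libraries correlated at r = -0.00617 over 1519 windows. With the replicate number as a block 0 single CpGs, bodies and windows were called, and 7, 6 and 30 had an unadjusted p under 0.05. Depth limits single CpGs, with a median of 13 reads per library.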

Other observations

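The least methylated isolated CpGs among the 330 with 10 reads in every library lay far from annotated starts in most cases, as isolated CpGs of other levels also did. For shared isolated CpGs the median distance was 144488 bp above 20% and below 80%, and 78187 bp at 80% or above. A CpG on chromosome 3 at 12364398 had 2.74% of 73 reads methylated over the 4 libraries and lay 520039 bp from the nearest gene. One on chromosome 6 at 14215513 had 2.86% of 70 reads, with 8.33% and 0% in FGR against 0% and 5% in Control. One in Grik2, a kainate receptor gene on chromosome 10, at 49658728, had 11.1% of 54 reads. The other 3 were on chromosomes 4, 5 and 7 at 122192283, 40584776 and 38484613, with 5.48%, 11.9% and 12.5%. Of the 330, 14 had 20% or less, 225 lay in between and 91 had 80% or more.

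Of the 125549 isolated CpGs 134 had no pooled neighbour within 5000 bp. The 3 with the longest distances lay on chromosome 7 at 5720309, 21701383 and 21738315, with 66987, 36932 and 36932 bp to the nearest pooled CpG, and were listed in 1, 1 and 2 of the 4 tables with 6 to 16 reads in all. The first of these lies nearest to Vmn1r62, a vomeronasal receptor gene.

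In promoter windows the level over all listed CpGs went with the number of CG in the 300 bases. It was 64.2% with 1 CG, 68.2% with 2, 68.1% with 3 to 4, 56.8% with 5 to 9, 18.7% with 10 to 19 and 3.53% with 20 or more, as means over the 4 libraries. Windows with a lone CG were thus not the most methylated ones.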
